A study of Rattus norvegicus with 12 samples.

Results

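The genes described here encode the presynaptic machinery that docks, primes and fuses synaptic vesicles. They were taken by name from the deposited count table: synaptotagmins, syntaxins, SNAP and VAMP proteins, synapsins, SV2 proteins, syntaxin-binding proteins, Munc13 (Unc13), RIM, complexin and Rab3 proteins, synaptogyrins, synaptoporin, synaptophysin, Piccolo and Bassoon. Of 18800 gene symbols, 81 matched by name and 76 of them had a summed count of 50 or more, and these 76 are the genes reported. Just inside that limit lay Syngr4 with a summed count of 51, and just outside it Syt9 with 38. Symbols alone chose the genes, so relatives that act on other membranes are among them, and Snap91 (the clathrin adaptor AP180) is no relative of the SNAP proteins.

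In a nerve terminal, the vesicle protein VAMP pairs with syntaxin and SNAP-25 of the plasma membrane, and the zippering of these SNARE proteins fuses the membranes. Munc13 proteins help build the complex, complexin clamps and helps it, and synaptotagmin triggers fusion when calcium enters. RIM, Bassoon and Piccolo hold vesicles and calcium channels together at the active zone, Rab3 GTPases sit on the vesicle, and synapsins tether the reserve pool. Most neurons use these proteins, but in different close relatives, so that the choice of relatives differs between brain regions and neuron types.

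The rats were of the Sprague-Dawley strain in 3 groups, all of them restrained, namely controls without electroacupuncture, a model group that had middle cerebral artery occlusion and reperfusion (MCAO/R, a model of ischemic stroke) without electroacupuncture, and an electroacupuncture group that had MCAO/R and needling with current at the points Tianfu, Chize, Kongzui and Taiyuan. The study's title names the Lung Meridian and synaptic plasticity as its subject. The tissue is labelled brain, with no region, side, age or time after the operation in the sources used here. The labels name no operation for the controls, while the table's control columns are headed as sham. The table has 11 columns for 12 labelled samples. Within a group, 3 column pairs were nearly alike (median squared difference 1.34 to 1.4 times the sampling variance, against 4.74 to 26.5 times in the other 12 pairs) and were merged into 1 sample each. This leaves 8 samples with 9335913 to 23835724 counts: 3 controls and 3 electroacupuncture samples, lettered A to C, and 2 model samples, lettered A and B. Across groups, 40 column pairs stood at 3.64 to 29.4 times the sampling variance. That range is much like the one of the unmerged pairs within groups. Whether the samples are separate animals is not stated, and the p-values then describe the spread among these samples only, which may be technical. Levels are counts of reads per total of each library times a constant (CPM, scaled by TMM) and are listed in the order of the letters. CPM is not corrected for gene length, so levels are compared between samples and not between genes.

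The samples differed in neuron type markers as well as in group. Electroacupuncture A stood apart: 10 striatal markers summed to 4872 CPM there, to 723 and 328 CPM in the model samples, to 152, 349 and 323 CPM in the controls and to 314 and 161 CPM in electroacupuncture B and C. Glutamatergic markers summed to 42.3 CPM in electroacupuncture A, 221 and 582 CPM in the model samples and 1055, 747 and 851 CPM in the controls. In electroacupuncture B and C they summed to 960 and 711 CPM. Hippocampal markers summed to 553, 494 and 519.7 CPM in the controls, 176 and 158 CPM in the model and 136, 463 and 426 CPM with electroacupuncture. Pan-neuronal markers summed to 3757 CPM in electroacupuncture A and to between 5361 and 7287 CPM in the other 7 samples. GABAergic markers summed to 886 and 762 CPM in the model samples and 819.6 CPM in electroacupuncture A, against 434 to 593 CPM elsewhere, with Gad2 at 0 in control B, both model samples and electroacupuncture B. No marker of the other lists named here was at 0 in any sample. Control C held choroid plexus markers at 1361 CPM, against at most 90.4 CPM in the others. In bulk tissue, fewer cells of a type and less RNA per cell cannot be told apart. The part of these differences in the results on release genes was not tested.

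Across all 3 comparisons no release gene passed at an adjusted p under 0.05 (edgeR quasi-likelihood test, Benjamini-Hochberg over 15487 genes, 74 of the 76 release genes tested). In the model against the controls, a single gene of the whole table passed (0.00646% of those tested), and it was none of these. At an unadjusted p under 0.05, the model had 6 release genes with a higher and 2 with a lower estimate, which is 10.8% of the 74 against 13.8% of all genes. Both model samples lay above all controls for 9 release genes (12.2%, against 18.2% of all genes) and below them for 10 (13.5%, against 19.6%). The median log2 fold change of the 74 was 0.05, beside 0.02 over all genes tested. Each of these shares of release genes lay below the share of all genes, and the differences between the shares were not tested.

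With electroacupuncture against the model, 0 genes passed (0.0% of all genes). At an unadjusted p under 0.05, 3 release genes were higher and 4 lower (9.46%, against 13.5% of all genes). All 3 electroacupuncture samples lay above both model samples for 5 release genes (6.76%, against 12.9%) and below them for 6 (8.11%, against 11.7%), and the median log2 fold change was -0.03, beside 0.03 over all genes. With electroacupuncture against the controls, 0 genes passed (0.0%), and 3 release genes had an unadjusted p under 0.05 (4.05%, against 3.66%). Groups did not overlap for 3 release genes upwards (5.98% of all genes) and 1 downwards (4.87% of all genes), and the median was -0.04, beside 0.01 over all genes. The comparisons share samples: each group enters a pair of them.

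Other treatments of the same counts made more calls. DESeq2 called 3 release genes in the model, Cplx3, Rab3b and Stx1a, all higher (4.91% of all genes called). With electroacupuncture against the model DESeq2 called 4, with Stx7 and Stxbp3 higher and Cplx3 and Stx1a lower (4.37% of all genes), and against the controls it called 0 (0.0054% of all genes). With all 11 columns as separate libraries edgeR called 4 in the model (Cplx3, Rab3b and Stx1a higher, Stx18 lower, 7.37% of all genes). The same fit called 6 with electroacupuncture against the model (Stx7, Stxbp3 and Syngr2 higher, Cplx3, Rab3b and Stx1a lower, 10.9% of all genes) and 0 against the controls (0.0%). With only the model and control groups in the fit, Cplx3 and Rab3b were called, both higher (1.95% of all genes). Leaving out electroacupuncture A gave the same 2 in the model (3.7% of all genes) and Rab3b, lower, with electroacupuncture against the model (1.82%). Leaving out model A gave Rims4 and Stx1a, both higher, in the model (2.23% of all genes) and Stx1a, lower, with electroacupuncture against it (1.93%).

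**Figure D1:**
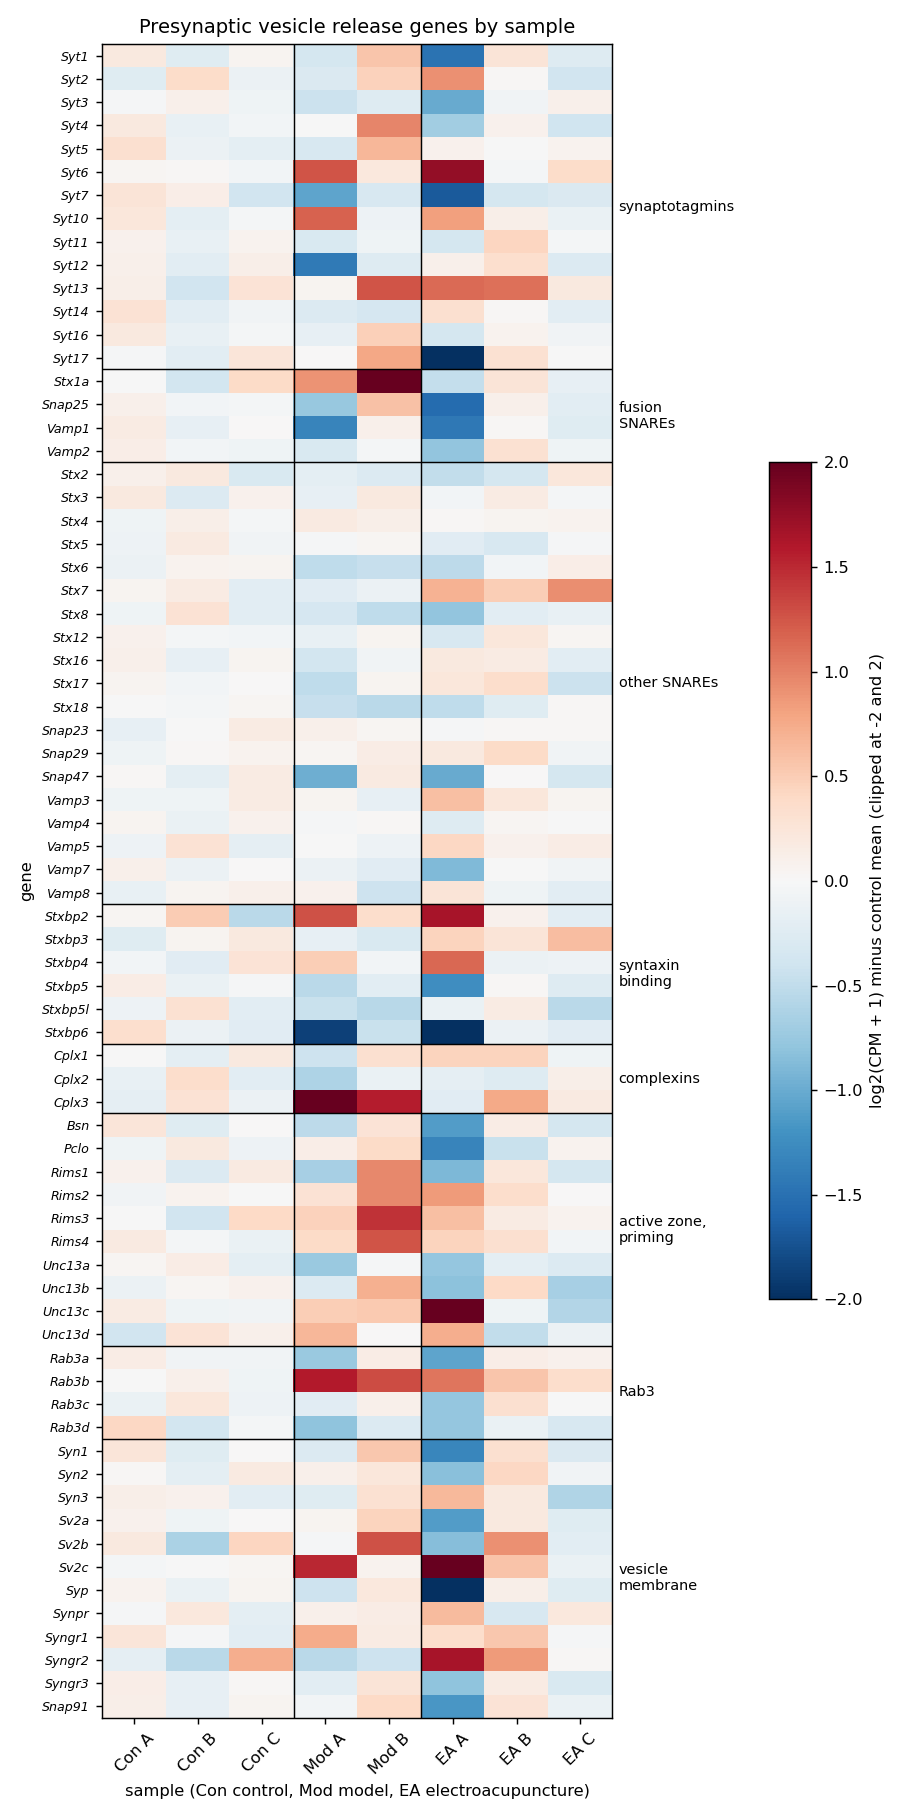
Levels of 72 of the 74 tested release genes in each sample, as log2(CPM + 1) minus the control mean, clipped at -2 and 2, with rows grouped by role and columns by group. Most rows of the core machinery are blue in electroacupuncture A, while Cplx3, Stx1a and Rab3b are red in both model samples.

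The core machinery of fast release tended to be lowest in 1 of the 8 samples and highest in another. Of 31 canonical release genes, 20 had their lowest level in electroacupuncture A and 16 their highest in model B. Over all genes tested, 23.7% were lowest in electroacupuncture A and 15.9% highest in model B. Oligodendrocyte markers, 7 genes with none at 0, were lowest in model B, at 24456 CPM in sum, against 31729 to 74130.0 CPM elsewhere, and their part in this order was not tested. The median log2 difference of the canonical genes from the control mean was 0.09, -0.07 and -0.02 in the controls, -0.25 and 0.38 in the model samples and -0.79, 0.21 and -0.21 in the electroacupuncture samples. The 2 model samples thus lay on opposite sides of the controls. Pan-neuronal markers had medians of -0.21 and 0.04 in the model samples and -1.13, 0.11 and -0.07 in the electroacupuncture samples.

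**Figure D2:**
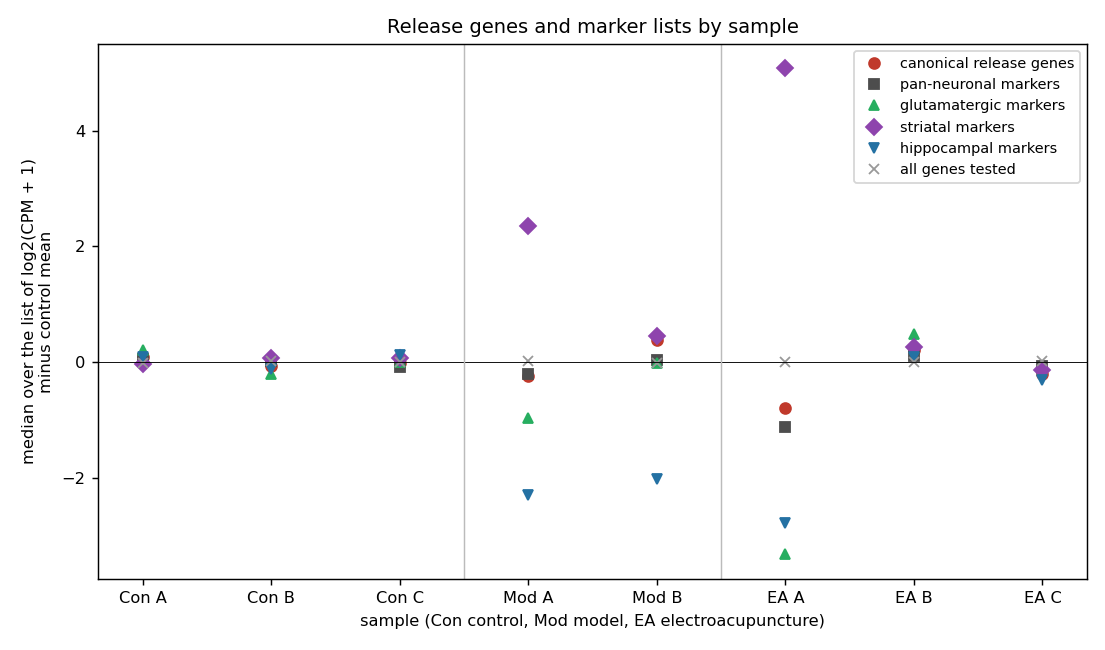
Median log2(CPM + 1) minus the control mean for the canonical release genes, 4 marker lists and all genes tested, with 1 point per list and sample. Release genes sit at -0.79 in electroacupuncture A, where glutamatergic markers sit at -3.33 and striatal markers at 5.08, while the median of all genes tested is 0.00.

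Of the SNARE proteins that fuse synaptic vesicles, syntaxin 1A was the member whose model samples did not overlap the controls. Stx1a measured 73, 56.7 and 95.6 CPM in the controls, 138 and 434 in the model samples and 52.5, 88.4 and 65.5 after electroacupuncture. Both model samples were above all other samples, model B by far, and the control and electroacupuncture ranges overlapped. The estimate was 3.81-fold higher in the model than in the controls (log2 fold change 1.93, SE 0.46, adjusted p = 0.172) and 4.16-fold lower with electroacupuncture than in the model group (log2 fold change -2.06, SE 0.46, adjusted p = 0.155). Its size rested on model B. Without model B the log2 fold changes were 0.87 and -1.0, and without model A 2.53 and -2.66, both of the latter past the threshold (adjusted p = 0.0125 and 0.0105 with model B as the lone model sample, assumed to vary like the other groups). Stx1a counts were whole numbers and close within both pairs of model columns.

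Snap25, the plasma membrane partner of syntaxin, measured 3518, 3136 and 3170.4 CPM in the controls, 1927 and 4914 in the model samples and 1121, 3513 and 2833 after electroacupuncture. The model samples lay to either side of the controls, and electroacupuncture A was lowest of all. Vamp2, the main vesicle SNARE of the forebrain, measured 1128, 986 and 965 CPM in the controls, 830.2 and 996 in the model samples and 593, 1270.0 and 968 after electroacupuncture, and its relative Vamp1 329.9, 262 and 296 CPM in the controls, 117 and 315 in the model samples and 109, 300.4 and 249 after electroacupuncture. Both were lowest in electroacupuncture A, where glutamatergic markers were lowest too, and Vamp1 was nearly as low in model A. None of the 3 passed in any comparison, and their adjusted p ran from 0.714 to 0.993, both of them for Vamp1.

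A ratio of reads between relatives within a sample does not depend on the scaling of libraries. The log2 ratio of reads of Cplx3, a complexin, to those of its relative Cplx1 was, relative to the control mean, -0.20, 0.52 and -0.32 in the controls, 2.88 and 1.36 in the model and -0.70, 0.39 and 0.29 with electroacupuncture. Both model samples were above every other sample in this ratio. Rab3b to Rab3a stood at -0.16, 0.19 and -0.02 in the controls and at 2.38 and 1.19 in the model. With electroacupuncture it was 2.15, 0.44 and 0.29, so that electroacupuncture A lay within the model range. Not every pair computed is given here. For Vamp1 to Vamp2 the ratio was 0.02, -0.12 and 0.09 in the controls, -1.03 and 0.14 in the model and -0.65, -0.28 and -0.16 with electroacupuncture, so that the model samples did not go the same way. These ratios were not tested, since the smallest two-sided exact permutation p is 0.2 for 3 samples against 2 and 0.1 for 3 against 3.

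**Figure D3:**
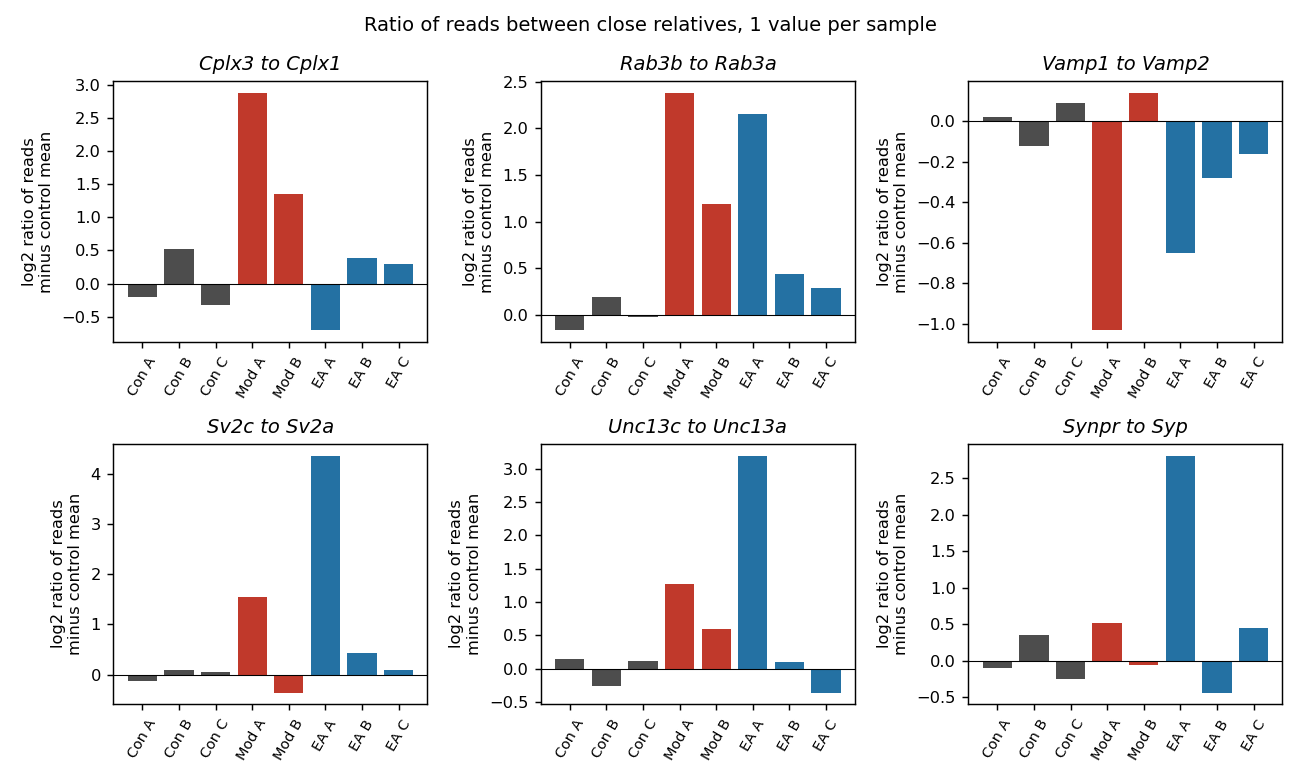
Log2 ratio of reads between close relatives in each sample, minus the control mean, as 1 bar per sample in 3 colours for the groups. Cplx3 to Cplx1 is high in both model samples, while Sv2c to Sv2a and Unc13c to Unc13a peak in electroacupuncture A at 4.37 and 3.20.

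Complexins bind the assembled SNARE complex, and the 3 genes measured here differed in pattern. Cplx3, the form best known from retinal ribbon synapses and from deep cortical neurons, measured 6.42, 9.32 and 6.78 CPM in the controls, 41.1 and 23.9 in the model samples and 6.16, 13.2 and 8.54 after electroacupuncture. Both model samples were above the other 6. The estimate was 4.33-fold higher in the model than in the controls (log2 fold change 2.12, SE 0.37, adjusted p = 0.115) and 3.47-fold lower with electroacupuncture than in the model group (log2 fold change -1.80, SE 0.37, adjusted p = 0.14). Without electroacupuncture A, which is in neither group of the first comparison, that one passed (adjusted p = 0.018). Its log2 fold change hardly moved (2.11), and its SE was 0.31. Leaving out a control or another electroacupuncture sample gave adjusted p from 0.141 to 0.455. Cplx3 counts were fractional estimates in all columns. The next gene on the chromosome, Lman1l, was at or below 1.02 CPM in every sample. Another neighbour, Ulk3, measured 9.53, 6.02 and 6.78 CPM in the controls, 10.1 and 11.4 in the model samples and 8.94, 7.18 and 8.96 after electroacupuncture. Both model samples were thus above all others for Ulk3 too, by a smaller step (log2 fold change 0.53, SE 0.26, adjusted p = 0.414, against the controls). A part of shared reads in the Cplx3 counts was not tested. Cplx1 and Cplx2, the widespread forms of the brain, measured 272, 239 and 311 CPM in the controls, 205 and 342 in the model samples and 370.2, 371 and 257 after electroacupuncture for Cplx1 and 166, 235 and 158 CPM in the controls, 119 and 167 in the model samples and 161, 154 and 199 after electroacupuncture for Cplx2. Groups overlapped for both in each comparison. Neocortical markers, 8 in all, summed to 377 and 715 CPM in the model samples and 314 to 481 CPM elsewhere. Among them, Cux2 measured 20.3, 19.6 and 18.1 CPM in the controls, 74 and 229 in the model samples and 41.6, 27.4 and 17.7 after electroacupuncture and Lamp5 37.2, 32.1 and 42.1 CPM in the controls, 36.6 and 303 in the model samples and 119, 49.2 and 35.4 after electroacupuncture. Both genes were highest in model B. The other 6 neocortical markers summed to 266 and 183 CPM in the model samples, against 254 to 336 CPM elsewhere, so that their sum was lowest in model B.

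Rab3 GTPases recruit RIM to the vesicle, and of the 4 forms it was Rab3b whose groups separated. Rab3b measured 19.98, 21.8 and 18.9 CPM in the controls, 62.8 and 51.2 in the model samples and 43.3, 30.2 and 26.2 after electroacupuncture. Both model samples were above all electroacupuncture samples, and these above all controls. The estimate was 2.82-fold higher in the model than in the controls (log2 fold change 1.5, SE 0.23, adjusted p = 0.0989), which was the smallest adjusted p of any release gene. It was 1.72-fold lower with electroacupuncture than in the model group (log2 fold change -0.78, SE 0.23, adjusted p = 0.218) and 1.64-fold higher with electroacupuncture than in the controls (log2 fold change 0.72, SE 0.21, adjusted p = 0.843). Without electroacupuncture A, the library with high striatal markers, Rab3b passed in the first and second comparison (adjusted p = 0.00917 and 0.0405). Its estimate with electroacupuncture against the controls was then 0.48 on the log2 scale. In the first comparison, which does not hold electroacupuncture A, the estimate hardly moved (1.49, SE 0.15). Leaving out a control or another electroacupuncture sample gave adjusted p from 0.108 to 0.447 in the first comparison and from 0.331 to 0.439 in the second. Rab3a, the main form of most terminals, measured 778, 666 and 666 CPM in the controls, 419 and 778 in the model samples and 338, 771 and 745 after electroacupuncture. It was low in model A and electroacupuncture A and level in the other 6. Rab3c stayed between 2.95 and 7.4 CPM. Rab3d was higher in control A (24.2 CPM) than in the other samples, which lay between 9.75 and 17.2 CPM.

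**Figure D4:**
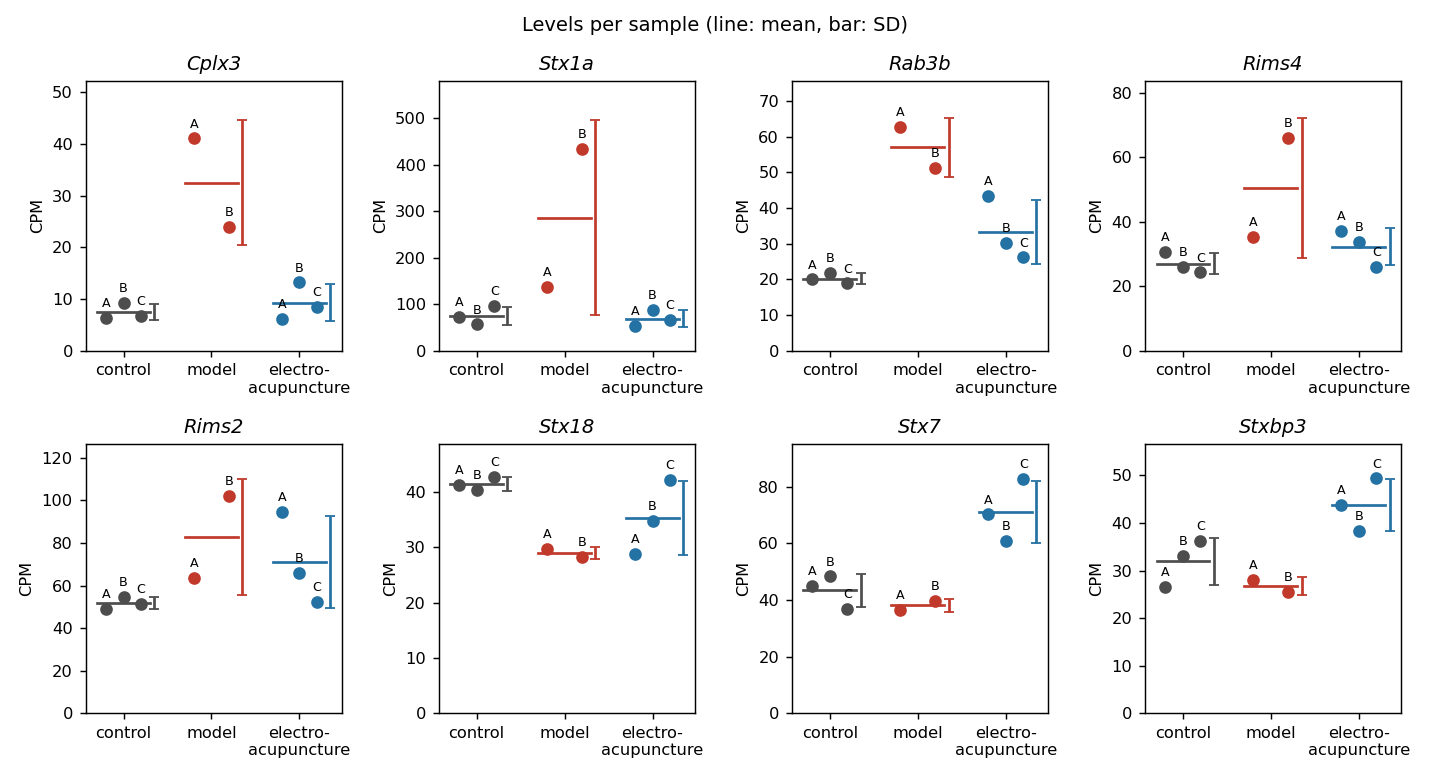
CPM of 8 release genes in each sample (letters), with the group mean as a line and the SD as a bar, over 3 control, 2 model and 3 electroacupuncture samples. Model samples lie above all controls for Cplx3, Stx1a, Rab3b, Rims4 and Rims2 and below them for Stx18, and electroacupuncture samples lie above the other groups for Stx7 and Stxbp3.

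The promoters of these 3 genes are shown because they were the release genes that DESeq2 called in the model against the controls. Each window runs from 250 bases before to 50 after the annotated start, from RefSeq on GRCr8, which need not be the build behind the counts. Capitals mark GGGCGG, the GC box bound by Sp1-type factors, on either strand. The cyclic AMP response element TGACGTCA was searched as well, with no overlap between the motifs in the 3 windows.
Stx1a, chr12:27306422-27306721, minus strand: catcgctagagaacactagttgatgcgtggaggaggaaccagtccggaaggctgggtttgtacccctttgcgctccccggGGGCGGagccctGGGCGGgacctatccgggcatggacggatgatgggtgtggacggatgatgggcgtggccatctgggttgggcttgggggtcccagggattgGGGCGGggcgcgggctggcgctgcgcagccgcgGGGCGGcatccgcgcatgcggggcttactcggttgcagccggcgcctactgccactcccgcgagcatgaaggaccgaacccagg
Cplx3, chr8:66906151-66906450, minus strand: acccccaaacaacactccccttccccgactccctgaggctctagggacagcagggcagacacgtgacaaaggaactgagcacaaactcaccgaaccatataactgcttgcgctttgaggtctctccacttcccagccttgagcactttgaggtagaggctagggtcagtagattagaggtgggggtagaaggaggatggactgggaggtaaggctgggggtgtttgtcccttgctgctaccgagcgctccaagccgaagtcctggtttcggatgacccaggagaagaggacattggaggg
Rab3b, chr5:128858841-128859140, plus strand: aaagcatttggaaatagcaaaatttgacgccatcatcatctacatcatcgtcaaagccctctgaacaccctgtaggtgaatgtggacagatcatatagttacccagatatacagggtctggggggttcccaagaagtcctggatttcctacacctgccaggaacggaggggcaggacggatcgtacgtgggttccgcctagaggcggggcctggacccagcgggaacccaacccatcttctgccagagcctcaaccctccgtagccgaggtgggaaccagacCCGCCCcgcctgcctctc
The Stx1a window holds 4 GC boxes, that of Rab3b 1 and that of Cplx3 0, and none of the 3 holds TGACGTCA. Of the 59 release genes with a window, 41 (69.5%) held GGGCGG, against 34.9% of 27457 promoters, and 2 (Syn1 and Vamp1) held TGACGTCA, against 1.91%. The first window listed for each symbol was used, and the background was neither limited to genes expressed here nor matched for base content. The differences between these shares were not tested. A match describes letters and not a bound site.

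Of the 10 active zone and priming genes, 8 were higher in estimate in the model, with a median log2 fold change of 0.39, beside 0.02 over all genes, and 4 had both model samples above every control (40.0%, against 18.2% of all genes, a difference not tested). The group's median log2 difference from the control mean was 0.21 and 0.62 in model A and B and -0.16, 0.16 and -0.20 after electroacupuncture. The shorter RIM proteins, which lack the Rab3-binding part of the long forms, were among them. Rims4 measured 30.6, 26 and 24.3 CPM in the controls, 35.2 and 65.9 in the model samples and 37, 33.7 and 25.9 after electroacupuncture (log2 fold change 0.91, SE 0.28, adjusted p = 0.234, in the model against the controls). Model B was far above model A, and the estimate was 0.38 without model B and 1.29 without model A (adjusted p = 0.0464, with the lone model sample assumed to vary like the other groups). Rims3 was sparse, at 0.458, 0.114 and 0.916 CPM in the controls, 1.02 and 2.96 in the model samples and 1.21, 0.638 and 0.527 after electroacupuncture. Rims2, a long RIM that tethers calcium channels and primes vesicles, measured 49.2, 54.7 and 51.6 CPM in the controls, 63.5 and 102 in the model samples and 94.7, 66.1 and 52.2 after electroacupuncture (log2 fold change 0.68, SE 0.28, adjusted p = 0.348), and its estimate was 0.29 without model B. Electroacupuncture A lay within the model range here.

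Rims1, the other long RIM, measured 262, 204 and 279.9 CPM in the controls, 155 and 482 in the model samples and 132, 289 and 192 after electroacupuncture. It was high in model B and low in model A and electroacupuncture A. The giant scaffolds Bassoon and Piccolo differed in their order: Bsn measured 315, 226 and 268 CPM in the controls, 184 and 321 in the model samples and 122.6, 297 and 208 after electroacupuncture, and Pclo 105, 127 and 104 CPM in the controls, 122.9 and 145 in the model samples and 44, 81.5 and 117 after electroacupuncture. For Pclo both model samples were above all electroacupuncture samples (log2 fold change -0.73, SE 0.35, adjusted p = 0.427), while Bsn overlapped. Without electroacupuncture A the log2 fold change of Pclo was -0.44 in place of -0.73. Of the 10 active zone and priming genes, 9 were lower in estimate with electroacupuncture than in the model (median -0.44, beside 0.03 over all genes).

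Munc13 proteins open syntaxin for SNARE assembly. Unc13a, the main form of excitatory terminals, measured 105, 114 and 89.8 CPM in the controls, 61 and 101 in the model samples and 59.8, 89.6 and 84.5 after electroacupuncture. All electroacupuncture samples were below all controls (log2 fold change -0.40, SE 0.23, adjusted p = 0.843), but electroacupuncture B (89.6 CPM) was almost level with control C (89.8 CPM). The columns merged as electroacupuncture B differed by 0.055 on the log2 scale, which is more than that gap. Electroacupuncture A was the lowest, and without it the estimate was -0.24. Model A was about as low as electroacupuncture A. Unc13b measured 16.9, 19 and 19.7 CPM in the controls, 15.1 and 30.8 in the model samples and 9.98, 24.7 and 11.3 after electroacupuncture and overlapped between all groups. Unc13c, a form best known from the cerebellum, measured 13.2, 10.9 and 11.1 CPM in the controls, 16.8 and 17.3 in the model samples and 63, 11 and 7.49 after electroacupuncture. Electroacupuncture A was far above the rest, and the model samples were above the controls by a smaller step (log2 fold change 0.54, SE 0.80, adjusted p = 0.787). Unc13d, best known from immune cells, stayed between 2.38 and 6.85 CPM, with its highest levels in model A and electroacupuncture A. Microglial markers, 9 genes with none at 0, were highest in those same samples (609 and 765 CPM, against 199 to 327 CPM elsewhere).

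Syntaxin-binding proteins chaperone or block syntaxin. Stxbp3 (Munc18c), a partner of syntaxin 4 at the plasma membrane of many cells, measured 26.5, 33.1 and 36.3 CPM in the controls, 28 and 25.5 in the model samples and 43.7, 38.3 and 49.4 after electroacupuncture. Every electroacupuncture sample was above every other sample (log2 fold change 0.71, SE 0.19, adjusted p = 0.187 against the model group, and log2 fold change 0.45, SE 0.16, adjusted p = 0.843 against the controls). Without electroacupuncture A its log2 fold changes were the same to 2 decimals, at 0.71 and 0.45. The columns merged as electroacupuncture B held 484 and 416 counts. With library size allowed for they differed by 0.219 on the log2 scale, beside the estimate of 0.45 against the controls. The separation from the controls is that of the merged sample and was not examined for the single columns.

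Stxbp6 (amisyn), which competes for SNARE assembly, measured 129.8, 94.4 and 86.9 CPM in the controls, 27.2 and 74.6 in the model samples and 23.8, 94.2 and 86.8 after electroacupuncture. Both model samples and electroacupuncture A were the lowest, as they were in hippocampal markers. The model estimate was -1.03 (adjusted p = 0.494), -0.48 without model A and -1.94 without model B. Stxbp5 (tomosyn, an inhibitor of fusion) measured 169, 139 and 150.2 CPM in the controls, 104 and 131 in the model samples and 64, 155 and 128 after electroacupuncture, again below the controls in both model samples (log2 fold change -0.38, SE 0.34, adjusted p = 0.645), with an estimate of -0.22 without model A. Its sparse relative Stxbp5l stayed at or below 4.21 CPM, with both model samples below all controls (log2 fold change -0.72, SE 0.41, adjusted p = 0.464). Stxbp2 and Stxbp4, which serve secretion outside the synapse, were highest in electroacupuncture A, at 15.2 and 23.6 CPM.

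Synaptotagmins sense calcium or lack that ability, and of the 14 tested none passed. Syt1, the fast sensor of the forebrain, measured 1086, 801 and 983 CPM in the controls, 742 and 1395 in the model samples and 342, 1139 and 795 after electroacupuncture. As for Snap25, model B was highest and electroacupuncture A lowest. Syt2, the fast sensor of the brainstem and of some interneurons, was sparse, between 0.738 CPM in electroacupuncture C and 3.3 CPM in electroacupuncture A. Syt7, the slow sensor behind asynchronous release, measured 1009.8, 925 and 645 CPM in the controls, 407 and 676 in the model samples and 263, 663 and 694 after electroacupuncture. Model A and electroacupuncture A were low, but the control range was wide, and groups overlapped.

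Syt3 measured 97.8, 106 and 93.4 CPM in the controls, 73 and 82.5 in the model samples and 48.8, 94 and 107 after electroacupuncture, with both model samples below all controls (log2 fold change -0.35, SE 0.30, adjusted p = 0.625). Syt4, which does not bind calcium in the usual way, measured 138, 109 and 117 CPM in the controls, 121 and 238 in the model samples and 74.3, 128 and 91 after electroacupuncture, highest in model B. Syt12 measured 9.81, 7.73 and 9.99 CPM in the controls, 2.79 and 7.45 in the model samples and 9.89, 11.8 and 7.38 after electroacupuncture, with a model estimate of -0.84 (adjusted p = 0.421) that was -0.31 without model A and -1.72 without model B. Model A was the low sample there. Syt14 lay slightly below the controls in both model samples (log2 fold change -0.34, SE 0.24, adjusted p = 0.549) and above the model with electroacupuncture (0.39 on the log2 scale, adjusted p = 0.55). Those estimates were -0.18 without control A and 0.24 without electroacupuncture A. Syt6 measured 0.458, 0.455 and 0.366 CPM in the controls, 2.41 and 0.657 in the model samples and 3.82, 0.383 and 0.844 after electroacupuncture (log2 fold change 1.83, SE 1.02, adjusted p = 0.46), and Syt10 1.1, 0.568 and 0.733 CPM in the controls, 3.05 and 0.657 in the model samples and 2.17, 0.935 and 0.633 after electroacupuncture. Both were highest in model A and electroacupuncture A, the samples with the highest striatal markers, and without model A the Syt6 estimate was 0.61.

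The remaining synaptotagmins overlapped between groups in all comparisons. Syt17, a distant relative, measured 57, 50.0 and 69.4 CPM in the controls, 58.4 and 100.3 in the model samples and 13.8, 71.9 and 58.1 after electroacupuncture. Electroacupuncture A was far below the rest. Syt11, which does not bind calcium and slows endocytosis, measured 361, 308 and 358 CPM in the controls, 275 and 322 in the model samples and 267, 459 and 330.5 after electroacupuncture, and Syt5 248, 183 and 174 CPM in the controls, 159.7 and 317 in the model samples and 211, 198 and 208 after electroacupuncture. Syt16 stayed between 26.7 and 48.2 CPM, and Syt13 between 0.796 and 4.6 CPM. Of these 5 genes, 4 were highest in model B and Syt11 in electroacupuncture B.

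Of the 12 vesicle membrane and coat genes tested, 10 were higher in estimate in the model (median 0.17, beside 0.02 over all genes) and 8 lower with electroacupuncture than in the model (median -0.28, beside 0.03). By sample, the group's median difference from the control mean was -0.04 and 0.24 in the model samples and -0.82, 0.30 and -0.17 in the electroacupuncture samples. Electroacupuncture A was thus far below the rest, and electroacupuncture B above both model samples. Syp (synaptophysin), a common marker of synaptic vesicles, measured 1863, 1617 and 1852 CPM in the controls, 1335 and 2059 in the model samples and 392.1, 1915 and 1495 after electroacupuncture, a 5.25-fold range between electroacupuncture A and model B. Syn1 (synapsin 1) measured 1024, 731 and 866 CPM in the controls, 717 and 1251 in the model samples and 350.0, 1085 and 709 after electroacupuncture, and Syn2 115, 97.9 and 127 CPM in the controls, 122 and 132 in the model samples and 62.5, 150.4 and 107 after electroacupuncture. Electroacupuncture A was lowest for all 3, and the groups overlapped. Syn3 stayed at or below 4.16 CPM. Each synapsin gene overlaps a TIMP gene in the RefSeq annotation, and 11 of the 76 release genes overlap another protein-coding gene there, so their counts may hold shared reads.

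The SV2 proteins, vesicle transporters that bind synaptotagmin, differed between relatives. Sv2a, present at nearly all synapses, measured 363, 320.0 and 342 CPM in the controls, 355 and 463 in the model samples and 156, 391 and 288 after electroacupuncture, and Sv2b, of forebrain glutamatergic neurons, 109, 60.7 and 127 CPM in the controls, 92.7 and 229 in the model samples and 51.9, 178 and 81.4 after electroacupuncture. Both were lowest in electroacupuncture A and highest in model B. Sv2c, known from the striatum and other basal ganglia, measured 7.97, 8.18 and 8.52 CPM in the controls, 25.1 and 8.7 in the model samples and 78.6, 12.8 and 7.38 after electroacupuncture. It was highest in electroacupuncture A and next in model A, as the summed striatal markers were, and its model estimate (log2 fold change 1.04, SE 0.94, adjusted p = 0.643) was 0.08 without model A. Its log2 ratio to Sv2a, relative to the control mean, was 1.55 and -0.36 in the model and 4.37, 0.43 and 0.09 with electroacupuncture.

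Synaptoporin (Synpr), a synaptophysin relative of hippocampal mossy fibres, interneurons and striatum, measured 129, 153 and 115 CPM in the controls, 141 and 146 in the model samples and 203, 105 and 151 after electroacupuncture. Unlike Syp it was highest in electroacupuncture A. Syngr3 measured 121, 98.9 and 112 CPM in the controls, 95.2 and 133 in the model samples and 62.8, 124 and 89.6 after electroacupuncture and followed Syp, and Syngr1 stayed between 3.57 and 7.88 CPM. Syngr2, the synaptogyrin of non-neuronal cells, measured 5.22, 3.87 and 10.7 CPM in the controls, 3.86 and 4.32 in the model samples and 21.3, 11.8 and 6.22 after electroacupuncture. All electroacupuncture samples were above both model samples (log2 fold change 1.68, SE 0.61, adjusted p = 0.296), and electroacupuncture A and B were above every control, while electroacupuncture C lay within the control range. Without electroacupuncture A the estimate was 1.2 in place of 1.7 on the log2 scale. Snap91 (AP180), which shapes clathrin coats during vesicle recycling, measured 219, 181 and 211 CPM in the controls, 195 and 268 in the model samples and 89.4, 246 and 184 after electroacupuncture and was lowest in electroacupuncture A.

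The SNARE genes of other membranes, 19 of them tested, included several that varied little. Stx4 of the plasma membrane varied 1.19-fold between its lowest and highest sample, Snap23, the SNAP-25 relative of most cells, 1.27-fold, and Vamp4 of the trans-Golgi network 1.27-fold. Of 72 release genes averaging 1 CPM or more, 24 varied less than 2-fold over the 8 samples and 17 more than 4-fold, up to 10.6-fold for Sv2c. In the model samples, 14 of the 19 were lower in estimate (median -0.17, beside 0.02 over all genes), and 4 had both model samples below all controls (21.1%, against 19.6% of all genes, a share near the background). Stx18, of the endoplasmic reticulum, measured 41.2, 40.2 and 42.7 CPM in the controls, 29.7 and 28.2 in the model samples and 28.8, 34.8 and 42.1 after electroacupuncture (log2 fold change -0.51, SE 0.18, adjusted p = 0.273). Stx6, of the trans-Golgi network, measured 100.1, 115 and 113 CPM in the controls, 76.5 and 79.2 in the model samples and 75.4, 105 and 119 after electroacupuncture (log2 fold change -0.49, SE 0.20, adjusted p = 0.348). Their model samples were alike, and both model samples were below every control. Stx8 of late endosomes (log2 fold change -0.45, SE 0.24, adjusted p = 0.443, and -0.29 without control B) and Vamp7 of lysosome-related vesicles (log2 fold change -0.18, SE 0.26, adjusted p = 0.785) were the others. Stx4 and Snap23 lay below both model samples in all electroacupuncture samples, with log2 fold changes of -0.10 and -0.07. Vamp5, under 1 CPM on average, lay above both in all electroacupuncture samples. Vamp3 (cellubrevin) of recycling endosomes measured 55.4, 55.1 and 65.9 CPM in the controls, 61.1 and 52.3 in the model samples and 89.8, 69.1 and 60.6 after electroacupuncture, highest in electroacupuncture A, and Stx5 of the Golgi 67.9, 83.2 and 69.6 CPM in the controls, 71.8 and 75.6 in the model samples and 62.3, 58.7 and 71.8 after electroacupuncture, with little spread.

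Stx7, a syntaxin of late endosomes, measured 44.8, 48.3 and 36.9 CPM in the controls, 36.5 and 39.7 in the model samples and 70.2, 60.7 and 82.6 after electroacupuncture. Every electroacupuncture sample was above every other sample (log2 fold change 0.90, SE 0.19, adjusted p = 0.141 against the model group, log2 fold change 0.71, SE 0.16, adjusted p = 0.843 against the controls). Its counts were fractional and disagreed within the pairs of near-identical columns: 260 and 422 for model A, 284 and 442 for model B, and 851 and 578 for electroacupuncture B. With library size allowed for, the columns of a pair differed by 0.723, 0.54 and 0.558 on the log2 scale, beside an estimate of 0.90 between the groups. Columns merged as 1 sample thus differed in Stx7 by more than 0.5 of the estimate between groups. Of the release genes, 22 had at least 1 fractional count.

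Genes of the release cycle outside these families were described by a list of 86, of which 82 were tested and 0 passed in any comparison. At an unadjusted p under 0.05, 6 had higher and 8 lower estimates in the model, and with electroacupuncture against the model these counts were 4 and 4 (17.1% and 9.76% of the 82, against 13.8% and 13.5% of all genes). The median log2 fold change was -0.16 in the model, beside 0.02 over all genes, and 0.08 with electroacupuncture against the model, beside 0.03. Both model samples were below all controls for 23 of the 82 (28.0%, against 19.6% of all genes) and above them for 11 (13.4%, against 18.2%). Ppfia4 (liprin-alpha 4, an active zone scaffold) measured 75, 64.3 and 63.9 CPM in the controls, 35.4 and 25.6 in the model samples and 74.8, 66.8 and 61.4 after electroacupuncture (log2 fold change -1.15, SE 0.19, adjusted p = 0.108 in the model, and log2 fold change 1.15, SE 0.19, adjusted p = 0.135 with electroacupuncture against it). Both model samples were below all the others. Without electroacupuncture A it passed in both comparisons (adjusted p = 0.0211 and 0.0479). Leaving out a control or another electroacupuncture sample gave adjusted p from 0.149 to 0.447 in the first and from 0.231 to 0.296 in the second. Without model A the log2 fold changes were -1.41 and 1.40, with model B as the lone model sample and the spread supplied by the other groups.

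Doc2a, a calcium sensor of spontaneous and asynchronous release, measured 7.42, 9.09 and 7.33 CPM in the controls, 28.8 and 40.7 in the model samples and 4.08, 16.1 and 7.91 after electroacupuncture (log2 fold change 2.13, SE 0.49, adjusted p = 0.17 in the model samples, and log2 fold change -1.88, SE 0.49, adjusted p = 0.183 with electroacupuncture against it). Its relative Doc2b was lower in estimate in the model samples, at 283, 275 and 223 CPM in the controls, 154 and 127 in the model samples and 135, 183 and 209 after electroacupuncture (log2 fold change -0.89, SE 0.23, adjusted p = 0.182). For both genes the model samples did not overlap the controls. Sncg (gamma-synuclein) measured 75.6, 44.6 and 76.3 CPM in the controls, 16.5 and 9.69 in the model samples and 18.9, 70.6 and 39.5 after electroacupuncture (log2 fold change -2.32, SE 0.57, adjusted p = 0.179), and Erc1 (ELKS, a RIM-binding scaffold) 68.4, 58.8 and 62.1 CPM in the controls, 30.1 and 35.6 in the model samples and 28.4, 60.5 and 49.8 after electroacupuncture (log2 fold change -0.94, SE 0.30, adjusted p = 0.242). For both, the model samples lay below all controls.

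Of the others with the smallest p in the model, Dnm3 (dynamin 3) measured 33.2, 34.8 and 37.5 CPM in the controls, 55.6 and 58.6 in the model samples and 51.9, 46.6 and 31.1 after electroacupuncture. The calcium channel subunit genes Cacna2d2 and Cacnb4 measured 107 and 64.9 CPM and 89.9 and 170.4 CPM in the model and 40.7, 40.5 and 36.1 CPM and 82.3, 62.2 and 61.7 CPM in the controls. For these 3 genes the model samples were both above all controls. The log2 fold change of Cacna2d2 was 1.14 with and 0.73 without model A, and that of Cacnb4 0.92 with and 0.38 without model B. With electroacupuncture against the model, Ppfia1 (liprin-alpha 1, log2 fold change 0.57, SE 0.20, adjusted p = 0.273) and the vesicle protein gene Scamp5 (log2 fold change 0.96, SE 0.41, adjusted p = 0.364) were higher in estimate. Scamp5 measured 40.8, 31.6 and 37.7 CPM in the controls, 16 and 30.9 in the model samples and 36.4, 69.1 and 31.1 after electroacupuncture, and its estimate was 0.51 without electroacupuncture B, 0.56 without model A and 1.51 without model B. The scaffold gene Lin7a (log2 fold change -2.12, SE 0.61, adjusted p = 0.217), the adhesion gene Nrxn3 (log2 fold change -0.79, SE 0.25, adjusted p = 0.242) and the active zone gene Erc2 (log2 fold change -0.83, SE 0.27, adjusted p = 0.259) were lower in estimate. Without model A the estimate of Erc2 was -0.52.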

How the data were processed

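Poly(A)-selected RNA from rat brain tissue was sequenced as paired-end, strand-marked libraries, per the labels' protocols. The authors deposited expected counts per gene symbol without normalization: column totals differ, and 70.5% to 72.1% of a column's values are whole. The submitters' processing notes name DESeq2 1.16.1, featureCounts 1.5.0-p3, StringTie 1.3.3b and HISAT2 2.0.5. Not given in the sources used here are the roles of these tools, the genome build, the use of the adapters' molecular identifiers and the handling of shared reads.

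Column names gave the group but not the sample, and the control columns, headed as sham, were taken as the control group because no other group was left. Columns of 1 group whose median squared difference was under 2 times the sampling variance (genes with at least 20 counts in the pair) were summed as 1 sample. The 4 symbols found on 2 rows were summed, and counts were rounded. The main test was edgeR's quasi-likelihood F test (edgeR 4.0.16, R 4.3.3; TMM, default filter by group, robust, two-sided), with 8 samples of 3 groups in 1 fit and 5 residual degrees of freedom. Calls are Benjamini-Hochberg adjusted p under 0.05 over all 15487 genes tested. SEs come from the F statistic. The totals of 9335913 to 23835724 counts leave little counting error except near 1 CPM. The route was run on simulated counts in which all genes had the same spread and no sample stood apart. That run cannot show how the test behaves with samples as unlike as these.

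Alternatives were DESeq2 1.42.0, limma 3.58.1 on quantile-normalized values (prior count 2), other scalings and filters, other uses of the column pairs, fits of 2 groups, and leaving out each sample. The release genes, the list of other release genes, the marker lists and the tests were chosen with earlier results of these data known. Named are release genes with no overlap between groups and a mean of at least 1 CPM (up to 10 per direction and comparison), 31 canonical genes, and of the other list the 4 with the smallest p per direction in the first and second comparison. Of the release genes, 2 are counted but not reported singly here. Other release genes, and Cux2 and Lamp5, are named to account for the families and were chosen after their values were seen.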

Additional observations from a re-analysis of the deposited data

How the results depend on the processing

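No release gene passed in the fit reported, nor with other scalings, other filters, limma, or the first column of each near-identical pair. The count of release genes called in the model against the controls was 4 with all 11 columns as separate libraries, 3 with DESeq2 and 2 with only these 2 groups in the fit, and 0 to 2 when 1 sample was left out. With electroacupuncture against the model it was 6 with all columns, 4 with DESeq2, and 0 to 1 when 1 sample was left out. Of the other release cycle genes, 6, 4 and 4 were called in the model by those 3 fits (all genes 7.37%, 4.91% and 1.95%) and 0 to 7 when 1 sample was left out, and with electroacupuncture against the model 8 with all columns, 3 with DESeq2 and 0 to 3 when 1 sample was left out. Among fits with 1 sample left out, calls of both lists appeared only without model A (all genes 2.23% and 1.93% in the first and second comparison) or electroacupuncture A (3.7% and 1.82%). With 1 sample left out, the median log2 fold change of the release genes in the model ran from -0.209 without model B to 0.142 without model A. Its direction thus rested on 1 sample. The log2 fold changes of genes named for non-overlap or for a smallest p kept their direction in every fit that could estimate them (the 17 alternatives, fewer for the sparse Lin7a, Stxbp5l and Syt6). These genes were picked from the same counts, and groups that do not overlap stay apart when 1 sample is left out. Their kept direction was thus largely fixed in advance and cannot be set against the canonical genes. Of the canonical genes given as levels only, the estimate turned its direction in at least 1 alternative for 15 of 23 in the model, 21 of 25 with electroacupuncture against the model and 14 of 27 against the controls, most often without a model sample or electroacupuncture A. Total counts in place of TMM moved the median log2 fold change of all genes in the model from 0.017 to 0.128, and that of the release genes from 0.051 to 0.147. Depth limits Syt2, Syt6, Syt10 and Rims3, which lie near 1 CPM. No paired analysis was possible because the table's columns could be tied to a group but not to a numbered sample, and the planned fit with the replicate number as a block was not run.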
